A study of Mus musculus with 48 samples.

Results

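Line A61 at 8 months was compared with its own controls on 8 of the 48 arrays of the series, 4 from transgenic mice and 4 from nontransgenic mice. The arrays were chosen by line and age in the labels, and every probe set was examined. The transgenic mice carried exon 1 of huntingtin (Htt) encoding 142 glutamines, joined to a nuclear exclusion signal (NES), and all 4 were males of 8 months. The controls were wild type mice of 8 months, controls 1 to 3 male and control 4 female. The descriptions and replicate numbers of all 4 controls named A61, but the titles of controls 2 to 4 named line A39 at 8 months, and these 3 were kept as A61 controls. Line A39, which carried the same NES construct with 142 glutamines, served for comparison. It had 4 transgenic and 4 nontransgenic animals at 4 months, and 3 transgenic and 3 nontransgenic animals at 10 to 10.5 months. Both sexes were present at each A39 age, though all 3 nontransgenic animals of the later age were male. Total RNA of whole cerebellum was hybridised to Affymetrix MG-U74Av2 arrays, 1 array for each animal code in the labels. The promoter that drives the transgene is not given in the sources used here, each line is a single transgenic line, and the arrays do not show the protein.

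An expanded glutamine run in exon 1 of huntingtin causes Huntington's disease, and fragments that hold exon 1 gather in the nucleus and the cytoplasm of neurons. A nuclear exclusion (export) signal directs a protein out of the nucleus, and is carried by the protein made in lines A61 and A39. Purkinje cells are the large inhibitory neurons that carry the output of the cerebellar cortex, are few beside the granule cells, and express a well known set of calcium-handling and postsynaptic genes. According to the series design, lines were first profiled when a rotarod deficit became measurable, so the comparison asks which cerebellar transcripts differ in A61 at that stage.

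All values below are intensities on the linear scale of the deposited table, scaled so that the trimmed mean of each array is 500, unless a log2 difference is named. The markers of cerebellum were high on all 8 arrays. The granule cell gene Gabra6 lay between 12016 and 13669 in A61 arrays and between 12596 and 15424 in control arrays, whereas the serotonergic marker Slc6a4 stayed at or below 135.4 and 255. The 8 arrays shared 1 scan day and 1 chip lot, and each of the 2 fluidics stations held 2 A61 and 2 control arrays. Control 4 stood apart, with a mean correlation of 0.951 with the other 7 arrays against 0.965 to 0.971 for the rest, an Actb 3' over 5' ratio of 1.56 and a median intensity of 261. It was also the female, with Xist at 1892 against at most 62.0 on the other arrays. Choroid plexus transcripts were low on A61 array 3 and on control 4. Ttr, the transthyretin of that tissue, was at 3384, 3278, 150.3 and 2010 in A61 arrays 1 to 4, and at 3118, 3582, 2952 and 770.8 in controls 1 to 4. Summed over 6 choroid plexus markers, intensity ran from 2783 to 9299 in A61 and from 3989 to 8775 in controls, with the same arrays lowest, and the part of this difference in the results below was not tested.

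Of 7453 probe sets tested with limma, 19 (0.255%) passed an adjusted p of 0.05 in A61 against its controls. Of these, 4 (0.0537%) rose and 15 (0.201%) fell. The Purkinje cell markers Rgs8, Homer3 and Calb1 were among the falls, with Rgs8 at 59.7% of the control signal, and the 2 named rises were Marcks, at 2.26 times the control signal, and the astrocyte filament gene Gfap, at 1.77 times. An unadjusted p under 0.05 was reached by 647 probe sets (8.68%), 331 of them higher and 316 lower in A61, and the groups did not overlap for 445 (5.97%), 255 of them higher (3.42%) and 190 lower (2.55%). The count of calls depended on the spread borrowed from the other lines, since a fit to the 8 A61 arrays alone called 5 probe sets, 2 of them among the 19. It also depended on single arrays, with 31 calls without A61 array 3, 7 without A61 array 2, 9 without A61 array 4, 11 without A61 array 1, 8 without control 1 and 10 without control 3. Without the 3 controls titled A39, against control 1 alone, all 15 named genes kept their direction, with Rgs8 at log2 -0.78. Only Dynlrb1 and Mybpc3 could have turned, since the groups of the other named genes did not overlap. The lone control has no spread of its own and was assumed to vary like the other groups. Of the 15 named genes past the threshold, Rgs8, Fam107b, Marcks, Gfap and Abcc8 passed with every one of the 8 arrays left out in turn. The other 10 (Homer3, Washc2, Calb1, Camk4, Zdhhc14, Fgf1, Btbd3, Dynlrb1, Ywhah and Mybpc3) all passed without A61 array 3 and all missed the threshold without A61 array 2 (adjusted p from 0.133 to 0.237) and without control 1 (0.0720 to 0.136). Of these 10, all but Homer3 missed it without A61 array 4 (0.0627 to 0.261) and without control 3 (0.0560 to 0.171), 7 without A61 array 1, 7 without control 2 and 4 without control 4.

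**Figure D1:**
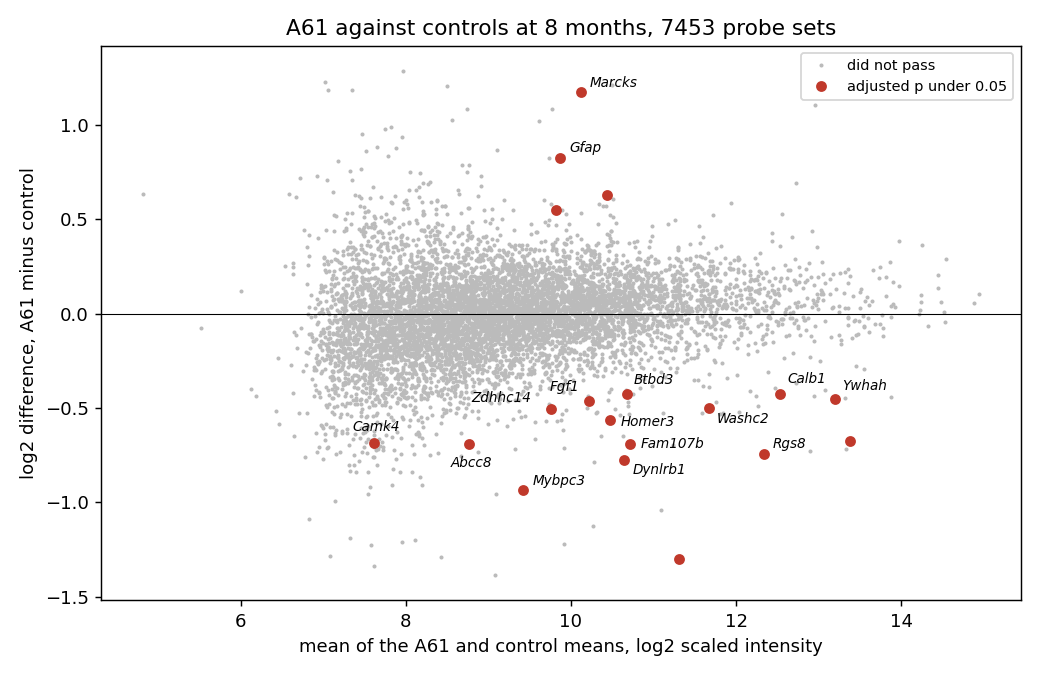
Log2 difference of each of the 7453 tested probe sets, A61 minus control, against the log2 of its mean scaled intensity over both groups. Red points are the 19 probe sets past an adjusted p of 0.05, with the 15 that carry 1 gene symbol named, and 15 of the 19 lie below 0.

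Of the Purkinje cell markers, Rgs8, Homer3 and Calb1 fell in A61. Rgs8, which shortens signalling by G proteins, was at 4138, 3407, 4531 and 3416 in A61 and at 6626, 6379, 6728 and 6078 in controls. Every A61 array lay below every control array, and the log2 difference was -0.74 (SE 0.10, limma adjusted p = 4.33e-05). Homer3, a postsynaptic scaffold that ties metabotropic glutamate receptors to calcium stores, was at 1173, 941.5, 1267 and 1193 in A61 and at 1881, 1735, 1535 and 1634 in controls. It fell to 67.6% of the control signal, a log2 difference of -0.57 (SE 0.12, adjusted p = 0.0198), with no overlap. Calb1, the calcium buffer calbindin, was at 4919, 4906, 5170 and 5264 in A61 and at 6760, 6748, 6667 and 7075 in controls. Its groups were tight, 5065 ± 180.0 in A61 and 6813 ± 179.7 in controls (SD, n = 4 each), and the log2 difference was -0.43 (SE 0.09, adjusted p = 0.0291).

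Of 18 tested Purkinje markers, from a list of 27 of which 20 were on the array, these 3 fell, 0 rose and 15 did not pass. Over all probe sets tested, 0.201% fell and 0.0537% rose past the threshold. The list was chosen with earlier results of these data known. Its median log2 difference was -0.32, beside -0.0008 over all 5639 genes, and 16 of 18 members were below 0. An unadjusted p under 0.05 in the lower direction was reached by 11 of 18, beside 4.24% of all probe sets tested, and the groups did not overlap in that direction for 7, beside 2.55%. Car8, a carbonic anhydrase-related protein that binds the inositol trisphosphate receptor, averaged 5693 ± 518.6 in A61 and 9502 ± 1392 in controls (SD, n = 4 each), but did not pass (log2 -0.73, SE 0.21, adjusted p = 0.139). Inpp5a, which removes a phosphate from inositol trisphosphate, Kcnma1, a large-conductance potassium channel, and Gad1, which makes GABA, had log2 differences of -0.41 (SE 0.12), -0.31 (SE 0.10) and -0.44 (SE 0.14). None of these 3 passed. Pcp2, a defining Purkinje transcript, spread widely within both groups, at 2092, 1748, 2775 and 2279 in A61 and at 3055, 3879, 2088 and 2098 in controls, and Cacna1a, the pore of the P/Q-type calcium channel, differed by 0.03 (SE 0.11). In RNA from whole tissue, fewer cells of a type and less RNA per cell cannot be told apart.

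**Figure D2:**
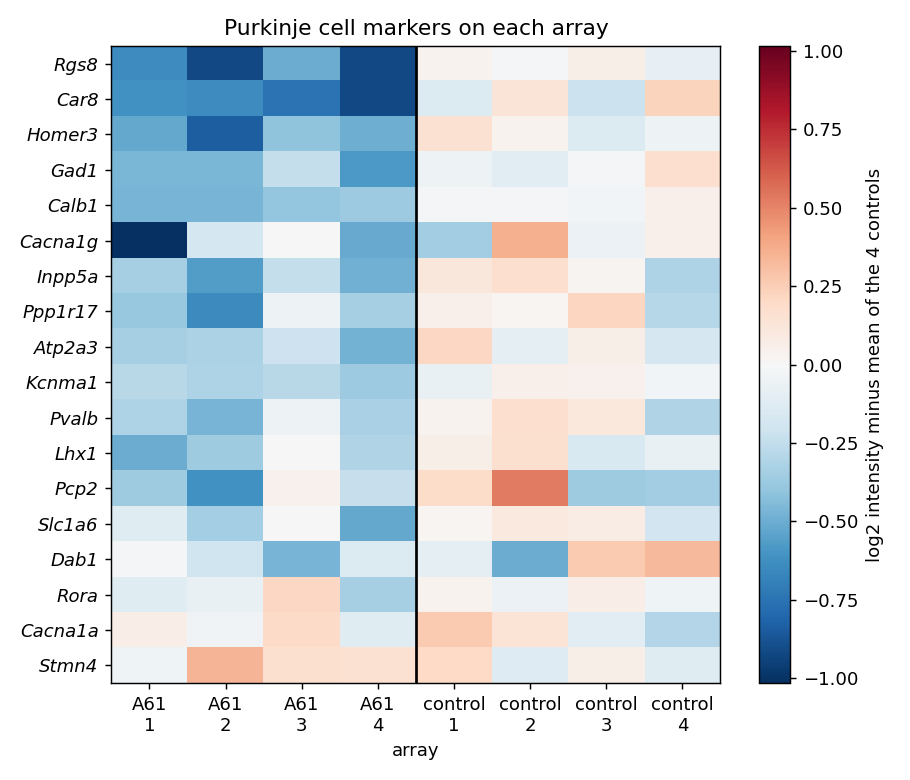
Log2 intensity of 18 Purkinje cell markers (rows, ordered by log2 difference) on the 4 A61 arrays and the 4 control arrays (columns), each as the deviation from the mean of the 4 controls. Blue is lower and red higher; the upper rows are blue in every A61 array, and A61 array 3 is the palest of the A61 columns.

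The Purkinje markers lay nearest to the control level on A61 array 3. Averaged over the 18 markers, A61 arrays 1 to 4 lay 0.36, 0.40, 0.17 and 0.41 log2 units below the control mean, while the controls deviated by 0.04, 0.05, -0.01 and -0.08. Over the 19 probe sets past the threshold, A61 array 3 was the nearest of the 4 to the controls in 16. The mean log2 size there was 0.42 on array 3, and 0.70, 0.84 and 0.78 on A61 arrays 1, 2 and 4. Array 3 was the A61 array with the lowest choroid plexus signal, and the list median over Purkinje markers was -0.40 without it and -0.39 without control 4. All 19 differences had the same direction within each fluidics station, and 16 were larger in size in the station that held A61 arrays 1 and 2. Only Dynlrb1 and Mybpc3 could have turned, since groups without overlap keep their direction in any split of the same arrays. Replicates carry no order, and what sets array 3 apart was not tested beyond these values.

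Rgs8 and Homer3 fell together in A61, so their promoters are shown, from 250 bases before to 50 after a transcription start (RefSeq, GRCm38.p6). The Rgs8 window is chr1:153665423-153665722, the third of 3 listed starts of the gene and the one shown because it holds the letters searched for, which the other two windows lack, and the Homer3 window is chr8:70282749-70283048, both on the plus strand. Capitals mark matches to AGGTCA on either strand, the half-site letters bound by nuclear receptors of the ROR family, one of which, Rora, is needed for Purkinje cell development.
Rgs8: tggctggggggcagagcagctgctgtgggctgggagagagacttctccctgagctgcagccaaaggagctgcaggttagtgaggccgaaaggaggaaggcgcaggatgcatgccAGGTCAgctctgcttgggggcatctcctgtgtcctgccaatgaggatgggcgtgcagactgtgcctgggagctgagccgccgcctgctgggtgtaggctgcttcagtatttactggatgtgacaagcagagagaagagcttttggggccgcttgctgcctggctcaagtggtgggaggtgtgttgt
Homer3: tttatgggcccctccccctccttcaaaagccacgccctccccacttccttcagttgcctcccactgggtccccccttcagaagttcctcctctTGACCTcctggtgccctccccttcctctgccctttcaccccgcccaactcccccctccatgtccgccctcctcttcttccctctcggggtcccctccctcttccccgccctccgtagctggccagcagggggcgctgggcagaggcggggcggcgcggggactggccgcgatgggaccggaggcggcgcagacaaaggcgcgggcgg
The Rgs8 match begins 136 bases and the Homer3 match 157 bases before the start. Promoters of 9 of the 15 named genes were searched. Of their 13 windows, 4 (30.8%) held the letters, in Rgs8, Homer3, Washc2 and Gfap, beside 16.3% of 32851 promoters in the table. Promoters of the other named genes (Marcks, Abcc8, Calb1, Camk4, Zdhhc14 and Fgf1) were not searched, whereas the 16.3% covers all 32851 promoters. These shares may thus not cover like sets, and their difference was not tested. A match of letters is a description and shows no binding, and Gfap, which holds one, rose. Rora itself differed by -0.08 (SE 0.14) and did not pass.

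Abcc8, Camk4 and Fgf1 also fell in A61. Abcc8, the sulfonylurea receptor subunit of ATP-sensitive potassium channels, was at 309.9, 326.6, 378.0 and 303.5 in A61 and at 526.3, 542.5, 497.3 and 605.0 in controls. It fell to 62.0% of control, a log2 difference of -0.69 (SE 0.13, adjusted p = 0.00345), whereas its second, dim probe set was not tested. Camk4, a calcium and calmodulin dependent kinase of neuronal nuclei, was at 140.8, 144.9, 149.3 and 146.2 in A61 and at 241.8, 227.1, 227.4 and 289.8 in controls. The A61 arrays lay within a few units of one another and all below the controls (log2 -0.69, SE 0.15, adjusted p = 0.0308). Fgf1, the acidic fibroblast growth factor, was at 1099, 892.9, 1102 and 914.1 in A61 and at 1559, 1241, 1298 and 1461 in controls (log2 -0.47, SE 0.10, adjusted p = 0.0346).

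Fam107b was at 1270, 1078, 1336 and 1444 in A61 and at 1881, 2119, 1950 and 2358 in controls, a fall to 62.0% (log2 -0.69, SE 0.10, adjusted p = 4.33e-05). It ranked beside Rgs8 at the head of the A61 comparison. Washc2, a subunit of the WASH complex that sorts cargo on endosomes, averaged 2705 ± 379.4 in A61 and 3822 ± 356.4 in controls (SD, n = 4 each; log2 -0.50, SE 0.10, adjusted p = 0.0198). Zdhhc14, an enzyme that attaches palmitate to proteins, averaged 711.8 ± 88.1 in A61 and 1016 ± 81.8 in controls (log2 -0.51, SE 0.11, adjusted p = 0.0313). Both had no overlap between the groups. Btbd3, known in mouse cortex for orienting dendrites, fell to 74.3% (log2 -0.43, SE 0.10, adjusted p = 0.0418), and Ywhah, the eta form of the 14-3-3 adaptors, to 73.1% (log2 -0.45, SE 0.10, adjusted p = 0.0431), again without overlap.

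Dynlrb1 and Mybpc3 passed with groups that overlapped. Dynlrb1, a light chain of the dynein motor, was at 1010, 882.6, 2030 and 942.3 in A61 and at 1933, 2085, 1886 and 1981 in controls, so that A61 array 3 lay inside the control range. The log2 difference was -0.77 (SE 0.18, adjusted p = 0.0431), or -1.05 without that array, and its second probe set differed by -0.09 (SE 0.16). Mybpc3, a myosin-binding protein best known from heart muscle, was at 381.8, 380.7, 747.4 and 377.8 in A61 and at 1016, 987.0, 1003 and 593.0 in controls. Here A61 array 3 and control 4, the arrays with the lowest choroid plexus signal, were both out of line with their groups (log2 -0.94, SE 0.22, adjusted p = 0.0431).

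**Figure D3:**
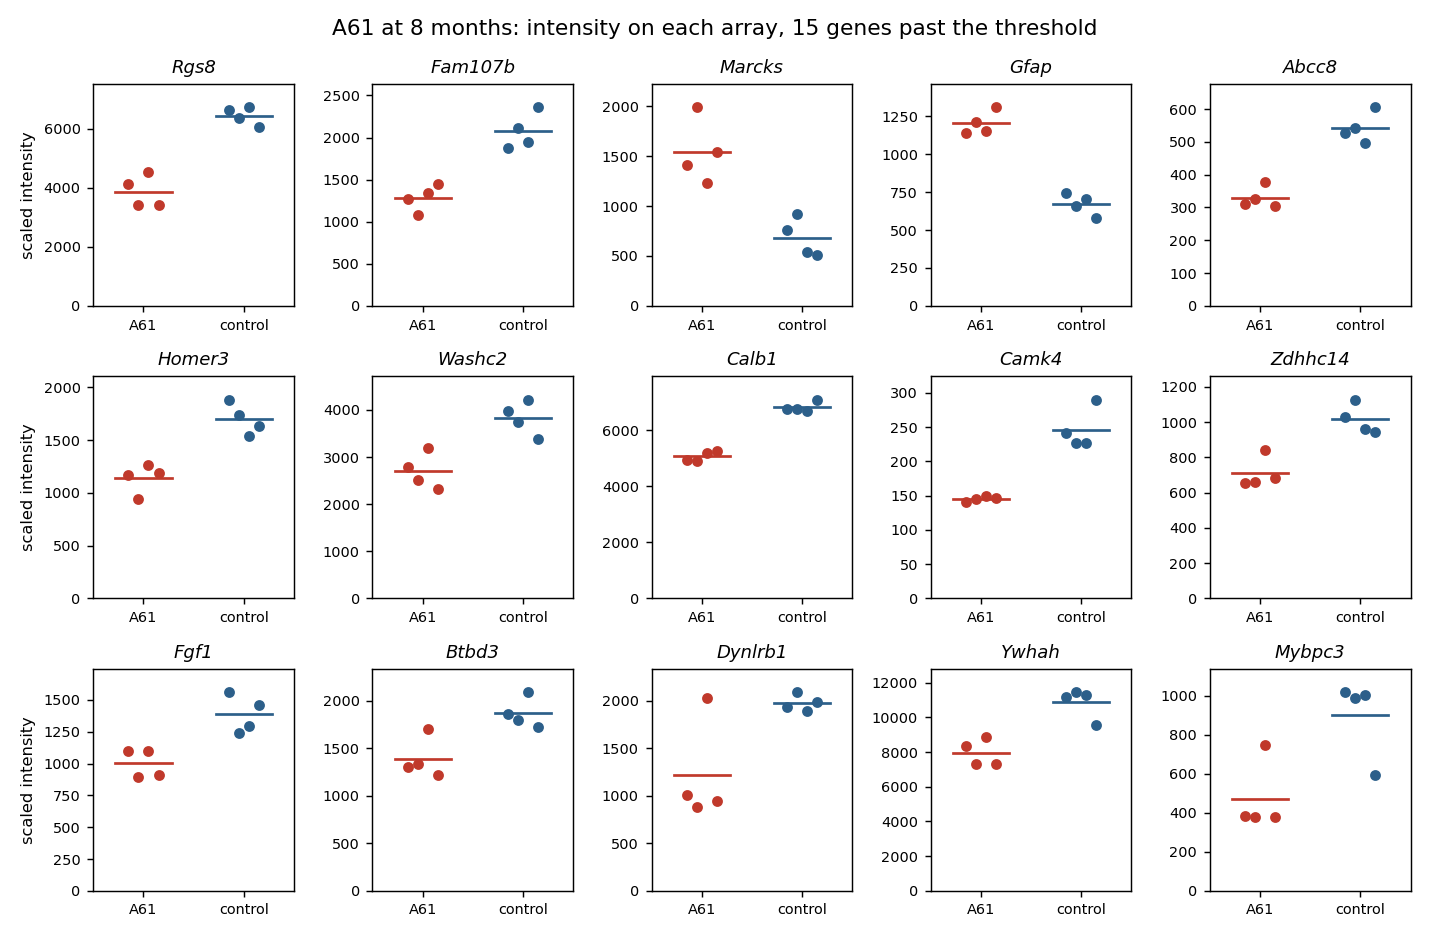
Scaled intensity on each array of the 15 named genes past the threshold, 4 A61 arrays on the left of each panel and 4 controls on the right, with axes from 0; lines are group means. The groups overlap in Dynlrb1 and Mybpc3 and in none of the other 13.

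Marcks, a membrane protein that binds actin and is phosphorylated by protein kinase C, was the steepest named rise. It was at 1406, 1987, 1233 and 1540 in A61 and at 756.6, 916.5, 539.5 and 513.4 in controls, with no overlap (log2 1.17, SE 0.19, adjusted p = 0.000794). Among 28 tested members of a list of axon growth genes and protein kinase C substrates, Marcks rose and 27 did not pass. Of all probe sets, 0.0537% rose past the threshold. The list median was 0.12, and an unadjusted p under 0.05 in the higher direction was reached by 7 of 28, beside 4.44% of all probe sets. These included Ncam1, a neural adhesion molecule (log2 0.37, SE 0.12), Tmsb10, an actin-sequestering thymosin (0.41, SE 0.13), and L1cam, an adhesion molecule of growing axons (0.48, SE 0.16). Prkcd, protein kinase C delta, lay the other way (-0.51, SE 0.13, adjusted p = 0.0961). The 2 probe sets of Basp1, a membrane protein of growth cones that is often grouped with Marcks, disagreed, at 0.87 (SE 0.23) and 0.09 (SE 0.22), and neither passed.

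Gfap, the intermediate filament protein of astrocytes, was at 1140, 1210, 1156 and 1309 in A61 and at 741.8, 659.4, 705.3 and 582.8 in controls. The rise was 0.83 on the log2 scale (SE 0.14, adjusted p = 0.00153). A second, dimmer probe set differed by 0.88 (SE 0.39) with no overlap but did not pass. The A61 controls lay low beside the 20 controls of other lines, which ran from 588.7 to 1724 with a median of 873.2. Among those, A39 controls ran from 588.7 to 780.5 at 4 months and from 901.3 to 1014 at 10 months. Of the 20, 19 lay at or below the highest A61 array. The other 15 tested markers of Bergmann glia and astrocytes did not pass, and the list median was 0.03. Aldoc, the aldolase of astrocytes and of a subset of Purkinje cells, had a log2 difference of -0.44 (SE 0.16, adjusted p = 0.352), while Aqp4, S100b and Gja1, a water channel, a calcium-binding protein and a gap junction protein of astrocytes, differed by 0.12 (SE 0.13), 0.03 (SE 0.15) and 0.03 (SE 0.12).

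No member of the other cell type lists passed. Microglial and macrophage genes had a median of 0.27 over 11 tested, with 9 above 0. Tyrobp, a signalling adaptor of microglia, was at 259.0, 348.0, 283.3 and 420.4 in A61 and at 187.2, 247.0, 156.6 and 85.9 in controls, without overlap (log2 0.94, SE 0.25, adjusted p = 0.0986). C1qa and Csf1r, a complement subunit and the receptor that sustains microglia, had differences of 0.48 (SE 0.16) and 0.37 (SE 0.14), and Cd14 one of -0.54 (SE 0.19). The lowest of these levels came from control 4 in Tyrobp and Csf1r. Oligodendrocyte and myelin genes had a median of -0.24 over 11 tested, with 10 below 0. Car2, a carbonic anhydrase of these cells, averaged 2685 ± 52.2 in A61 and 3510 ± 257.1 in controls (log2 -0.38, SE 0.11, adjusted p = 0.122), and Mbp, the main myelin basic protein, differed by -0.16 (SE 0.10). All 8 tested genes of interneurons and GABA synthesis were below 0 (median -0.41). Nxph1, a secreted ligand of neurexins, came first by p, at 79.4, 237.4, 179.0 and 41.1 in A61 and at 178.6, 253.8, 247.9 and 273.2 in controls, dim and with overlap (log2 -0.95, SE 0.30, adjusted p = 0.242). The others included Slc32a1, the vesicular GABA transporter (-0.39, SE 0.21), and Kit, a receptor of molecular layer interneurons (-0.33, SE 0.12). Gad1 belonged to this list and to that of Purkinje cells.

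Granule cell markers had a median of -0.05 over 15 tested. Calb2, the calcium buffer calretinin, was at 7111, 7772, 6498 and 7066 in A61 and at 4514, 5605, 5637 and 4081 in controls, without overlap but short of the threshold (log2 0.53, SE 0.14, adjusted p = 0.0986). Cbln1, a synapse organiser released by granule cells, and Neurod1, their differentiation factor, lay at -0.31 (SE 0.11) and -0.39 (SE 0.16). Lists of tissues near or within the dissected piece also held no call. Their medians were -0.28 for choroid plexus (6 tested), -0.10 for vessels (9), -0.14 for meninges and fibroblasts (11), -0.25 for blood cells (6) and -0.08 for neighbouring brainstem and midbrain (6).

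**Figure D4:**
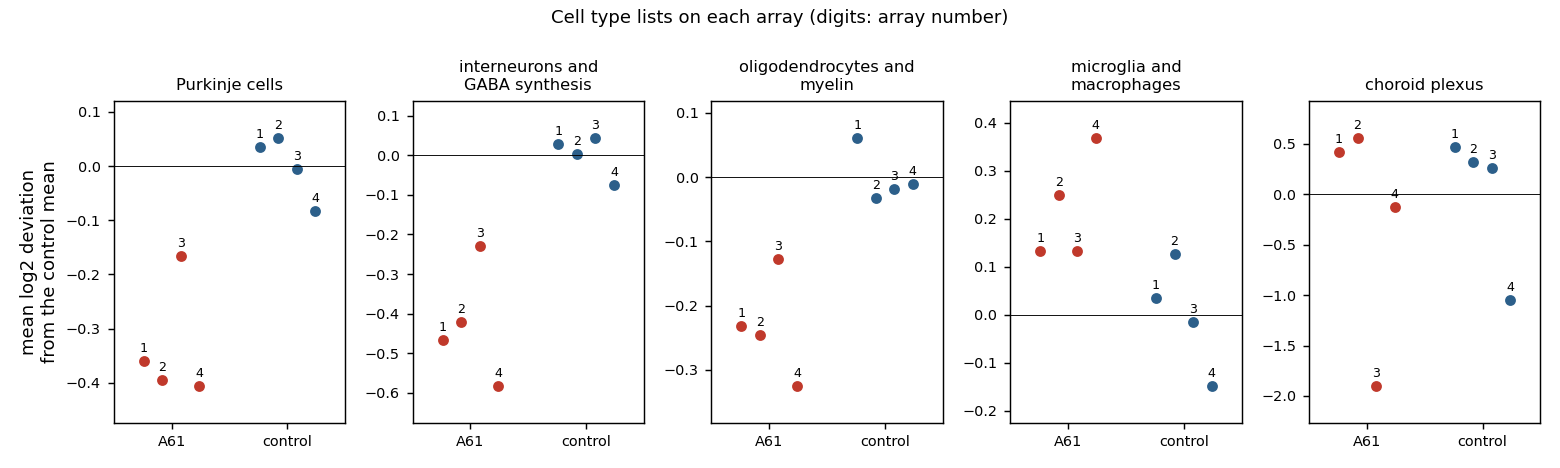
Mean log2 deviation from the mean of the 4 controls over the members of 5 cell type lists, for A61 arrays on the left and control arrays on the right of each panel, digits giving the array number. The Purkinje, interneuron and oligodendrocyte values of the A61 arrays lie below those of the controls, and choroid plexus is lowest on A61 array 3 and control 4.

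Among pathway lists, calcium signalling genes had a median of -0.08 over 26 tested. Camk4 fell, beside 0.201% of all probe sets, and 25 did not pass, among them Atp2a2, which pumps calcium into internal stores (log2 -0.47, SE 0.14). Of 14 tested genes known to fall in the striatum in Huntington's disease, Camk4 fell, 13 did not pass and 12 lay below 0 (median -0.19), beside 51.2% of all probe sets below 0. Cck and Penk, a pair of neuropeptide precursors, were examples at -0.71 (SE 0.22) and -0.44 (SE 0.15). Of 20 potassium, sodium and chloride channel genes Abcc8 fell and 19 did not pass (median -0.09), with Kcnk2, a leak potassium channel, at 0.56 (SE 0.19). Of 27 regulators and partners of G proteins Rgs8 fell and 26 did not pass (median 0.03). The share of all probe sets that fell past the threshold, 0.201%, stands beside each of these lists.

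The remaining lists held no call. Their median log2 differences were 0.04 for heat shock proteins and chaperones (28 tested), 0.08 for endoplasmic reticulum stress (18), 0.12 for proteasome subunits (34), 0.10 for ubiquitin and autophagy (27), -0.11 for cholesterol synthesis (14), -0.06 for immediate early response (18), -0.22 for interferon and MHC class I (12), -0.14 for glutamate and GABA receptors (16), -0.0021 for synaptic vesicle and release machinery (23), -0.03 for mitochondrial respiratory chain subunits (54), 0.06 for ribosomal proteins (25), 0.08 for histones and chromatin regulators (28) and -0.04 for p53 targets and cell death (13). Within them, Uchl1, a neuronal deubiquitinase, and Ube2b, a ubiquitin-conjugating enzyme, lay at 0.50 (SE 0.13, adjusted p = 0.0986) and 0.37 (SE 0.10, adjusted p = 0.115). Msmo1, a sterol oxidase of cholesterol synthesis, had no overlap at -0.84 (SE 0.26, adjusted p = 0.242).

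Next in order of p came 15 genes without overlap between groups that did not pass, with adjusted p from 0.0635 to 0.0986. Alad, an enzyme of heme synthesis, had the largest difference among them, at 520.7, 609.5, 594.8 and 556.1 in A61 and at 1273, 1426, 1637 and 1130 in controls (log2 -1.22, SE 0.29). Scoc, a short coiled-coil protein, was at 818.0, 779.7, 727.4 and 719.3 in A61 and at 1478, 1549, 1640 and 2131 in controls (-1.13, SE 0.29). In A39 neither came near the threshold, with Alad at -0.05 and -0.48 and Scoc at -0.16 and 0.26. The other lower genes were Pvalb, the parvalbumin of Purkinje cells and interneurons (-0.65, SE 0.16), Doc2b, a calcium sensor of vesicle release (-0.77, SE 0.19), Nab2, a corepressor of the EGR factors (-0.67, SE 0.17), Sema7a, a membrane-anchored semaphorin (-0.52, SE 0.13), and Prkcd, given above.

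The other 8 were higher. Bmi1, a Polycomb ring protein, and Kmt2a, a histone H3 lysine methyltransferase, lay at 0.57 (SE 0.14) and 0.42 (SE 0.10), and Mbtd1, a chromatin reader, at 0.56 (SE 0.14). Cdc42, a small GTPase of the actin cytoskeleton, Nav2, a neuron navigator protein, and Copb1, a coat subunit of Golgi vesicles, lay at 0.48 (SE 0.12), 0.52 (SE 0.13) and 0.48 (SE 0.12). Pag1, a membrane adaptor of Src family kinases, and Map3k5, a stress-activated kinase, completed the group at 0.73 (SE 0.19) and 0.45 (SE 0.12). Second probe sets of Mbtd1 and Kmt2a differed by 0.05 (SE 0.21) and 0.24 (SE 0.14), and those of Prkcd and Sema7a by -0.33 (SE 0.15) and -0.50 (SE 0.27). The brighter probe set of Pvalb, which stands in the Purkinje list, averaged 10768 ± 1359 in A61 and 13208 ± 1832 in controls (SD, n = 4 each), with overlapping groups and a smaller log2 difference of -0.29 (SE 0.12, adjusted p = 0.467).

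Of the 19 probe sets past the threshold, 4 had no single gene symbol in the platform's table. Probe set 100566_at had the largest size of the 19, at 1393, 1220, 1992 and 1298 in A61 and at 4245, 3315, 3720 and 3163 in controls (log2 -1.30, SE 0.18, adjusted p = 5.69e-05). Probe set 160899_at also fell (-0.68, SE 0.13), and 93697_at (0.63, SE 0.10) and 99070_at (0.55, SE 0.12) rose, all without overlap between groups. The 2 probe sets of mouse Htt did not pass. They averaged 754.3 ± 93.9 and 1699 ± 125.3 in A61 and 640.4 ± 77.0 and 1671 ± 133.7 in controls (SD, n = 4 each), with log2 differences of 0.23 (SE 0.14) and 0.02 (SE 0.11), and whether their probes lie in exon 1 is not given in the sources used here, so they do not check the transgene.

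Line A39 gave the same construct on separate arrays, with 118 probe sets (1.58%) past the threshold at 4 months and 141 (1.89%) at 10 months. Of the 19 A61 probe sets, 14 (73.7%) were also past it in the same direction in A39 at 4 months and 14 (73.7%) at 10 months, 13 of them at both ages and 4 at neither. These 14 were 11.9% of the A39 calls at 4 months and 9.93% of those at 10 months. Read the other way, 103 of the 118 A39 probe sets at 4 months (87.3%) and 132 of the 141 at 10 months (93.6%) had the same sign in A61. An unadjusted p under 0.05 in that direction was reached in A61 by 76 (64.4%) and 83 (58.9%) of them, and in the opposite direction by 0. Over all probe sets tested, log2 differences in A61 correlated with those in A39 at 0.38 for 4 months and 0.32 for 10 months. The A61 differences were the smaller ones. Probe sets lower in A39 had a median log2 difference of -0.40 in A61 against -0.71 in A39 at 4 months, and of -0.35 in A61 against -0.75 in A39 at 10 months. These sets were chosen by their size in A39, which favours larger values there. Among the 19 chosen in A61, the A61 difference was still the smaller one for 12 against A39 at 4 months and for 14 against A39 at 10 months.

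Single genes did not share 1 order over the groups. Rgs8 had log2 differences of -0.74 (SE 0.10) in A61, -1.04 (SE 0.10) in A39 at 4 months and -1.33 (SE 0.12) in A39 at 10 months. Homer3 lay at -0.57 in A61 and at -0.98 and -1.26 in A39, and Fam107b at -0.69 in A61 and at -1.28 at both A39 ages. Abcc8 lay at -0.69 in A61 and at -0.59 and -0.51 in A39, where it did not pass at 10 months (adjusted p = 0.0594), and Zdhhc14 at -0.51 in A61 and at -0.51 and -0.58 in A39. Gfap passed in A61 (0.83) and in A39 at 10 months (0.94), but not in A39 at 4 months (0.32, adjusted p = 0.354). Of the 4 A61 probe sets called at neither A39 age, 3 were named. Camk4 lay at -0.22 and -0.58 in A39, Fgf1 at -0.33 and -0.16, and Dynlrb1 on the other side of 0 at 0.19 and 0.24. The fourth, 99070_at, lay at 0.08 and 0.40. Over the 20 control arrays of all other lines, Dynlrb1 ran from 858.6 to 2329 with a median of 2010. Low values of this probe set thus also occurred without a transgene. Of these 20 controls, 11 lay at or below the highest A61 array in Dynlrb1, 10 in Ywhah and 8 in Mybpc3. In the other named genes that fell, 0 to 3 did so. Camk4 ran from 150.9 to 361.0 over these controls, all above the highest A61 array. The A61 controls were high in Rgs8, where 3 of the 20 reached the lowest of them. The same count was 6 in Abcc8, 7 in Fgf1, 7 in Ywhah and 9 in Zdhhc14, and 12 to 19 in the remaining named falls.

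**Figure D5:**
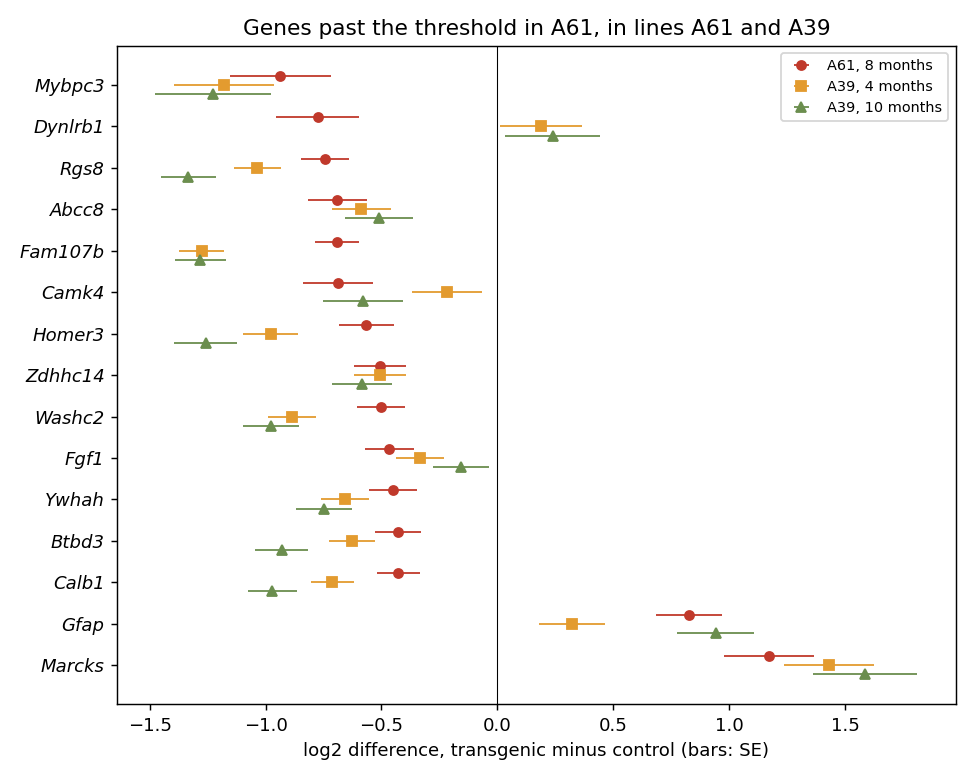
Log2 difference, transgenic minus control, of the 15 named genes past the threshold in A61, in A61 at 8 months (circles), A39 at 4 months (squares) and A39 at 10 months (triangles), with bars for the SE. Dynlrb1 alone lies on opposite sides of 0 in the 2 lines, and most A61 points lie nearer to 0 than those of A39.

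The tests of the difference itself found no probe set past the threshold. In limma, 0 of 7453 passed (0%) for the A61 effect minus that of A39 at 4 months, with 288 (3.86%) at an unadjusted p under 0.05, and 0 (0%) for the A61 effect minus that of A39 at 10 months, with 323 (4.33%). For the earlier age the smallest p belonged to Fam107b, whose fall was smaller in A61 by 0.59 (SE 0.13). Next were B2m, the invariant subunit of class I histocompatibility molecules, at -0.24 in A61 and 1.24 in A39, Jun, a component of the AP-1 factor, at 0.05 and 1.26, and Cfp, the complement regulator properdin, at 0.0059 and -0.79. The adjusted p was 0.393 for all 4. For the later age they were Dctn6, a dynactin subunit, at -0.48 in A61 and 0.66 in A39, Fam107b again (difference 0.59, SE 0.15), Ptpn22, a lymphocyte phosphatase, at -0.26 and -1.08, and Ackr1, a chemokine-binding receptor, at -0.24 and -1.14, with an adjusted p of 0.281 for all 4. A p that misses the threshold does not show that the lines act alike. Line, age, mix of sexes and scan day differ together between A61 and A39 and cannot be told apart. Chip lot also differs for all A39 arrays at 10 months and for A39 control 2 at 4 months.

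Over the 18 Purkinje markers tested, the median log2 difference was -0.32 in A61, with 3 lower past the threshold (0.201% of all probe sets). In A39 it was -0.60 at 4 months, with 11 lower (1.13%), and -0.72 at 10 months, with 12 lower (1.27%). The difference between these medians was not tested. Choroid plexus markers had medians of -0.28 in A61 and of 0.80 and 0.64 in A39, with no member past the threshold in any of the 3 comparisons. Microglial genes had medians of 0.27 in A61 and of 0.28 and 0.62 in A39, with 0, 0 and 3 members higher, beside 0.0537%, 0.456% and 0.617% of all probe sets. Interferon and MHC class I genes had medians of -0.22 in A61 and of 0.19 and -0.12 in A39, with 1 member, B2m, past the threshold at 4 months.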

How the data were processed

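The authors' deposited table holds Affymetrix intensities on a linear scale, made with MAS 5 per the submitters' processing notes; how the scaling was set is not given in the sources used here. The experiment records that the authors deposited beside it gave the scan day, chip lot and fluidics station, which are other fields and not measurements. Intensities were rescaled by each array's trimmed mean, Affymetrix controls were removed, and log2(intensity + 18.7) was fitted in limma 3.58.1 (R 4.3.3) with 1 mean for each of the 14 groups over all 48 arrays. The 7453 probe sets at or above the 40th percentile of mean intensity were tested, with Benjamini-Hochberg adjustment at 0.05. Fold changes are on the log2(intensity + pseudocount) scale, which understates changes of dim genes. A gene with several probe sets was read in the lists from the one with the highest mean. Gene symbols came from GEO's platform annotation: 10855 probe sets had 1 symbol, 396 several and 1237 none. The number of arrays limits the precision. Apart from an animal code for each array, nothing says how samples were taken, so p-values measure the spread between these samples. Named genes were those past the threshold, the next 15 by p with 1 symbol and no overlap between groups, list members in order of p, and Htt; difference tests are represented by the 4 smallest p. The lists, 29 in all, the members and these rules were chosen with earlier results of these data known. Pcp2, Cacna1a, Rora, Aqp4, S100b, Gja1, Mbp, Gabra6, Slc6a4 and Ttr are named outside the rules, after their values were seen. Scripts were tested on simulated data. Alternatives covered scaling, pseudocount, filter, arrays fitted, sex, batches and each array left out; the fluidics station was added after seeing the data.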

Additional observations from a re-analysis of the deposited data

Results flagged for a closer look

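In 8 of the 64 groups of 4 arrays examined, 1 array lay farther from the other 3 than Dixon's 95% critical value allows. Chance gives about 3.2 for independent groups that were not selected. These groups share the same arrays, and most of their genes were picked by p and overlap on them, so the 2 counts are not strictly comparable. A61 array 3 was the high one in 3 of them. It read 842.9 for Zdhhc14 against 657.6 to 684.5 on the other A61 arrays, 2029.7 for Dynlrb1 against 882.6 to 1009.5, and 747.4 for Mybpc3 against 377.8 to 381.8. Control 4, the female, was the low one in 3. It read 9583 for Ywhah against 11163.5 to 11441.6 on the other controls, 593.0 for Mybpc3 against 987.0 to 1016.4, and 804.9 for Nab2 against 967.0 to 988.9. Control 3 was low for Mbtd1, at 275.9 against 357.6 to 375.8. Control 2 was high for Sema7a, at 1574 against 1466.8 to 1479.9.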

How the results depend on the processing

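The 19 probe sets past the threshold in A61 became 5 in a fit to the 8 A61 arrays, 8 in a fit to the A61 and A39 arrays, 6 without the 3 controls titled A39, 7 with median centring, 12 with no filter, 1 with a fluidics station term in the 8 arrays (chosen after seeing the data), and 7 to 31 with each array left out. Same-numbered deviations correlated at 0.124, 0.021, 0.030 and 0.021 in A61, and number 1 alone was its own best match. They correlated at 0.147, -0.0068, 0.153 and 0.144 in A39 at 4 months, and at 0.025, -0.110 and -0.343 at 10 months. In A61, replicates 1 and 2 of both groups also shared a fluidics station. These values do not decide whether replicate numbers pair the samples. The replicate block in the 8 A61 arrays gave 0 calls, with 644 at an unadjusted p under 0.05. For the difference from A39 at 4 months, 0 calls became 2 without the controls titled A39, 1 with males only, 1 with no filter and 0 to 4 with each array left out. For A39 at 10 months they became 2 with quantile scaling and 0 to 1 with each array left out; the replicate block gave 0 for both. Of 798 gene values under alternatives, 618 kept direction and side of the threshold, 154 lost it, 23 gained it and 3 turned, all of Htt 102928_at: -0.0015 with quantile scaling, and, with each array left out, from -0.022 (without control 1) to 0.074 (without A61 array 3), with -0.011 without A61 array 4. The causes were not tested beyond the smaller numbers of arrays or probe sets that some alternatives use. None of the 15 named genes passed in every alternative other than leaving out arrays. None could, since the replicate block in the 8 A61 arrays called 0 probe sets. Such alternatives passed ranged from 14 of 17 for Rgs8 and Gfap to 6 of 16 for Camk4. Median centring moved the median of all probe sets to 0.06, from -0.0057 in the scaling used. Of the list medians recomputed under alternatives, 269 stayed within the control spread and 21 moved by more. Dim probe sets, below the filter, are limited by signal over background.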
